A study of Mus musculus with 2 samples.

Results

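Transcripts of the peptidylarginine deiminases were examined in bone marrow neutrophils of C57BL/6 mice, an inbred laboratory strain. The family has 5 genes in the mouse, Padi1, Padi2, Padi3, Padi4 and Padi6. Its members were taken as every probe set that the platform annotation assigns to exactly 1 of these symbols. This gave 5 probe sets, 1 for each gene, of 45101 probe sets on the array and 5 genes of 18194 with a probe set of their own. No probe set shared by several genes carried a Padi symbol. The study holds 1 group of 2 samples and no treatment, mutant or control group. In 2 independent experiments live marrow cells with high Gr-1, a granulocyte antigen, and no CD48, a surface protein found on most other leukocytes, were collected by flow cytometry. RNA from each sort was hybridised to 1 expression array, called replicate 1 and replicate 2 after the titles. Neither the age of the mice nor how many went into each sort is stated in the labels, and the spread between the arrays may be technical, biological or both.

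Peptidylarginine deiminases convert arginine residues of proteins into citrulline in a reaction that needs calcium, which removes a positive charge from the protein. PAD4, the product of Padi4, carries a nuclear localisation signal and citrullinates histones; in neutrophils this activity is known for its part in the release of chromatin as neutrophil extracellular traps. PAD2 is the most widely expressed member, PAD1 and PAD3 are known from epidermis and hair follicles, and PAD6 belongs to the egg and early embryo.

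The 5 genes lie next to each other on mouse chromosome 4, in the order Padi6, Padi4, Padi3, Padi1 and Padi2 of the RefSeq gene table. All 5 matched a start site in RefSeq's promoter table (build GRCm38.p6). Padi2 is on the plus strand and the other 4 genes are on the minus strand, so Padi1 and Padi2 are transcribed away from each other. The 250 bases before the start sites of Padi4 and Padi2 are printed because Padi4 was the member above background on both arrays and Padi2 the one above it on replicate 2 alone. The Padi4 window is chr4:140774204-140774453, minus strand, and the Padi2 window is chr4:140906110-140906359, plus strand. Both read 5′ to 3′, and capitals mark motif matches.
Padi4: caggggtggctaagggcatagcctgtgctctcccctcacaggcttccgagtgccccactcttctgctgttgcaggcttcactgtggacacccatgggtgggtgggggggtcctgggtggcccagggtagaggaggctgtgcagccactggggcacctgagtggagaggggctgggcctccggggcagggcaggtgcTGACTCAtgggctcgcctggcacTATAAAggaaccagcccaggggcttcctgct
Padi2: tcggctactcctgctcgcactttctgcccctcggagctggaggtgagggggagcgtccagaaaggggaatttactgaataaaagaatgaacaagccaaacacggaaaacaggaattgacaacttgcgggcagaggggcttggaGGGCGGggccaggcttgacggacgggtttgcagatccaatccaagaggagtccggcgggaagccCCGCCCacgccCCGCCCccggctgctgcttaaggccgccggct
The motifs were searched on both strands. They were the TATA box TATAAA, the motif TGANTCA known for the AP-1 factors, and the GC box GGGCGG known for Sp1. For factors of granulocytes they were GAGGAA, of the ETS type to which PU.1 belongs, and TTGCNNAA, of the C/EBP type. None of the matches in the printed windows overlapped. The Padi4 window held TATAAA from base 31 to base 26 before the start and TGACTCA from base 54 to base 48 before it. TATAAA was found in 12.4% and TGANTCA in 6.75% of all 32851 windows of this length, and among the 5 Padi genes Padi4 was the 1 with either. The Padi2 window held 3 matches to GGGCGG, a motif in 32.7% of all windows, and Padi3 and Padi6 held 1 each. Padi6 held 2 matches to GAGGAA, found in 23.3% of all windows, and TTGCNNAA, found in 9.56%, matched in none of the 5. CpG dinucleotides numbered 17 in the Padi2 window and 3 in that of Padi4, against a median of 6 over all windows and quartiles of 2 and 16. Padi3 had 3, Padi6 had 1 and Padi1 had 0. These matches describe letters in a window and not sites in use.

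The values are signal intensities on a linear scale, and their trimmed mean was equal on both arrays as deposited, so array differences are relative and not absolute. The 95th percentile of 87 probe sets for olfactory, vomeronasal, trace amine and taste receptors served as background and came to 108 on the first array and 131 on the second. The call "above background" needs a probe set over this value on both arrays. Of all 18194 genes 40.4% were above background, and of the 9182 genes read, like each Padi gene, by 1 probe set 26.7% were. All 12 measured genes of a neutrophil marker list were above background on both arrays, while the sort antigen gene Cd48 was below it on both and Ly6g was not analysed here. The lists for other marrow cell types had 16 of 69 measured markers (23.2%) above it. Of 27 measured genes of other organs 3 (11.1%) were above it too, so a single marker above background does not show a population. With 1 group and 1 array per experiment there is no test between conditions, no p-value is given, and the number of arrays limits the precision. Whether a low signal reflects fewer cells with a transcript or less of it in each cell cannot be told apart in sorted bulk RNA.

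Padi4 was the only 1 of the 5 Padi genes above background on both arrays, against 40.4% of all genes and 32.5% of all probe sets. On replicate 1 taken alone it was again the only 1, against 46.3% of all genes, and on replicate 2 taken alone Padi2 joined it, against 44.2%. Its probe set (1422760_at, gene identifier 18602) had signals of 4088 on replicate 1 and 4027 on replicate 2. Both arrays were high and close to each other, and none of the 87 sensory receptor probe sets was as bright on either. The signal was 38.0 times the background value on replicate 1 and 30.6 times on replicate 2. On the log2 scale the level was 11.99 ± 0.02 (SD, n = 2).

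**Figure D1:**
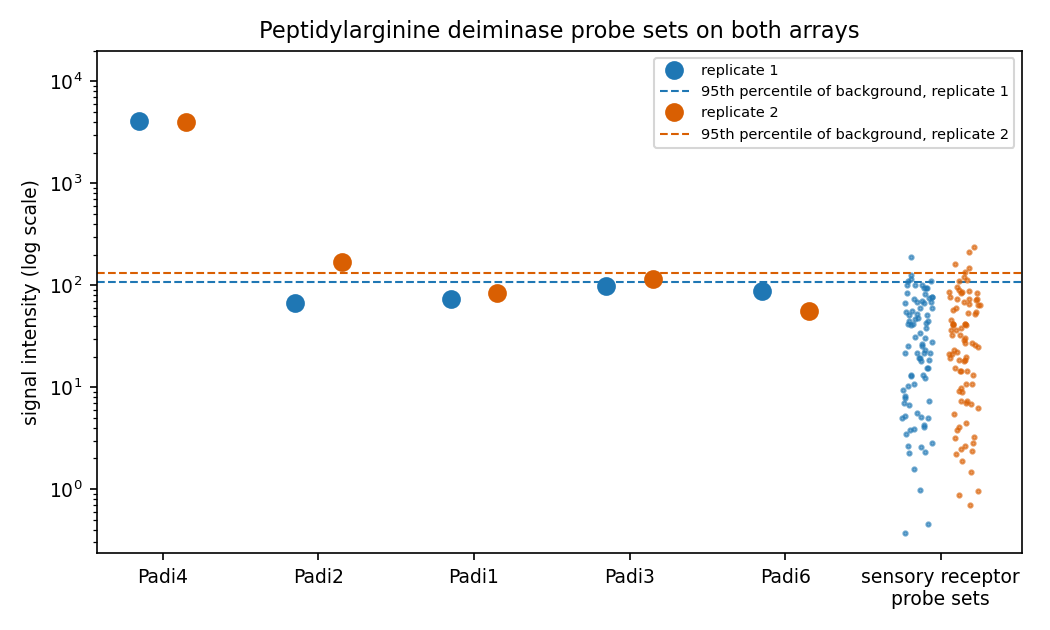
Signal intensity (log axis) of the 5 Padi probe sets on replicate 1 (blue) and replicate 2 (orange), with the 87 sensory receptor probe sets at the right and their 95th percentile on each array as a dashed line. Padi4 sits at 4088 and 4027, above every sensory receptor probe set, Padi2 crosses the line on replicate 2 alone (168), and Padi1, Padi3 and Padi6 lie below it on both arrays.

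The difference between the experiments in Padi4 was -0.02 (log2 signal, replicate 2 minus replicate 1), and it was 0.06 after quantile normalization, so its sign is not settled. The 705 probe sets within 0.5 of Padi4's mean log2 level had a median difference of -0.06 with an SD of 0.47, and 4.4% of them differed over 2-fold. Their median absolute difference was 0.30, larger than that of Padi4. Of the 7354 genes above background 5.4% differed over 2-fold, 3.43% higher on replicate 2 and 1.97% higher on replicate 1, with a median difference of 0.07. The direction of that split depends on the scaling: as deposited, 252 of these genes favoured replicate 2 and 145 favoured replicate 1. Median scaling gave 163 against 235, and the hybridisation controls as reference gave 33 against 1555. Scaling to the hybridisation control transcripts, which are added in fixed amounts at hybridisation and not to the RNA, moved Padi4 to -0.74. It moved the median of these genes to -0.65. Relative to that median Padi4 stood at -0.09 under both scalings. Multiplying an array by a constant shifts Padi4 and the median alike, so this equality was fixed in advance. With quantile normalization, which is not such a shift, Padi4 stood at 0.006 relative to the median.

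Padi2, the widely expressed paralogue, had signals of 67.3 on replicate 1 and 168 on replicate 2 (1418252_at, gene identifier 18600). It was below the background of the first array and 1.28 times that of the second, with 21 of the 87 sensory receptor probe sets brighter on replicate 1 and 2 brighter on replicate 2. The Padi2 signal on replicate 2 was 1.56 times the background value of replicate 1. This is no lower bound on the difference, since that signal lay near the background of its own array and the scaling is not settled. The measured difference was 1.32 on the log2 scale, where the 6664 probe sets within 0.5 of its mean level had an SD of 0.74 and 15.0% differed over 2-fold. Of all probe sets on the array 3.02% were, like Padi2, above background on replicate 2 alone.

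Padi3, which acts in the hair follicle, came closest to the background from below on both arrays. Its signals were 98.5 on replicate 1 and 115 on replicate 2 (1419767_at, gene identifier 18601), 0.915 and 0.879 times the background values. Of the sensory receptor probe sets 8 were brighter on replicate 1 and 6 on replicate 2. With the 90th percentile as background, a value of 94.3 on replicate 1 and 92.3 on replicate 2, Padi3 was above it on both arrays, so its call rests on the percentile.

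Padi1, the epidermal paralogue, had signals of 72.9 on replicate 1 and 84.9 on replicate 2 (1419323_at, gene identifier 18599), below background on both, with 17 and 13 sensory receptor probe sets brighter. Padi6, the egg paralogue, had signals of 88.9 on replicate 1 and 55.6 on replicate 2 (1437084_at, gene identifier 242726), also below background on both, with 11 and 26 brighter. The measured log2 differences were 0.22 for Padi1, 0.23 for Padi3 and -0.68 for Padi6, where probe sets of the same brightness had SDs of 0.88, 0.74 and 0.94. Each of the 3 differed between the experiments by less than 1 SD of its level. A signal below background puts only a bound on the transcript and does not show that it was missing.

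**Figure D2:**
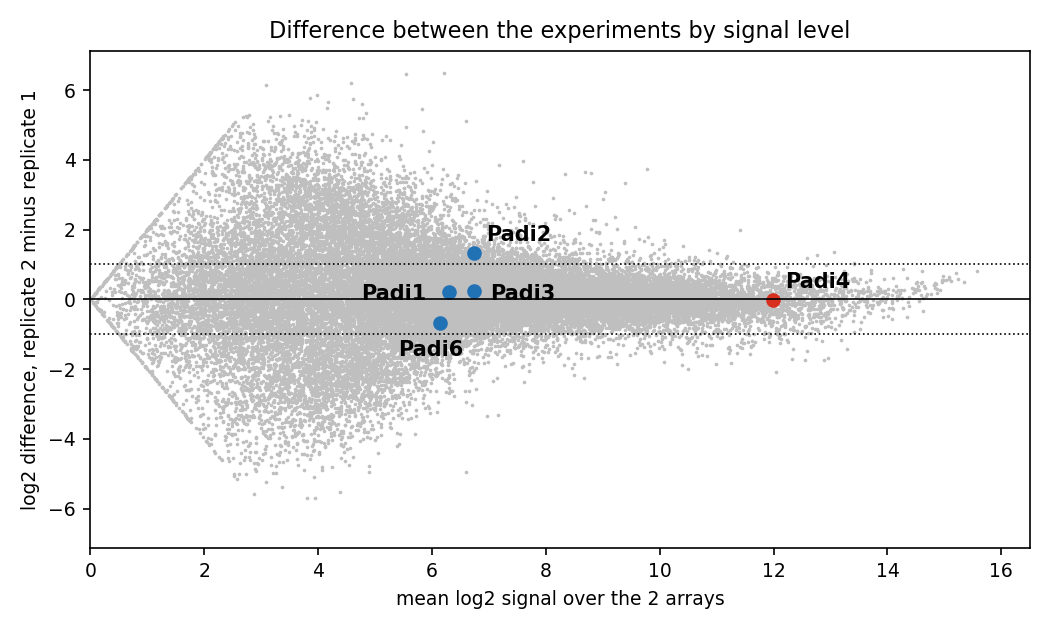
Log2 difference between the arrays (replicate 2 minus replicate 1, vertical axis) against mean log2 signal (horizontal axis) for every probe set with 1 gene (grey); Padi4, above background on both arrays, is red and the other Padi genes are blue, and dotted lines mark 2-fold. Padi4 (-0.02) lies on the zero line where the cloud is narrow, while Padi2 (1.32) lies beyond 2-fold where the cloud is wide.

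The genes that flank the cluster were described to set Padi4 beside its chromosomal surroundings. Within the cluster the long non-coding RNA gene Gm13032, between Padi3 and Padi1, had signals of 36.4 and 59.7 on replicates 1 and 2, below background on both. Of the 3 nearest named protein-coding genes on the Padi6 side, Rcc2, a regulator of chromosome condensation, had 58.4 and 113 on its brightest probe set, Arhgef10l had 12.5 and 37.4, and Igsf21 had 62.2 and 63.6, none above background on both arrays. On the Padi2 side all 3 were above it. Sdhb, a subunit of succinate dehydrogenase, had signals of 2337 and 2289. Atp13a2, a lysosomal transport ATPase, had 1016 and 987. Mfap2, a microfibril protein, had 179 and 309 on a probe set whose name ends in _x_at, which can bind several transcripts, and its other probe set was below background. In this stretch of chromosome 4, Padi4 was flanked on both sides by genes below background on both arrays (Padi6 and Padi3), and the nearest other measured protein-coding gene above background on both was Sdhb, beyond Padi2. The non-coding RNA genes Gm52482 and 4930515B02Rik of the cluster were not analysed here.

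**Figure D3:**
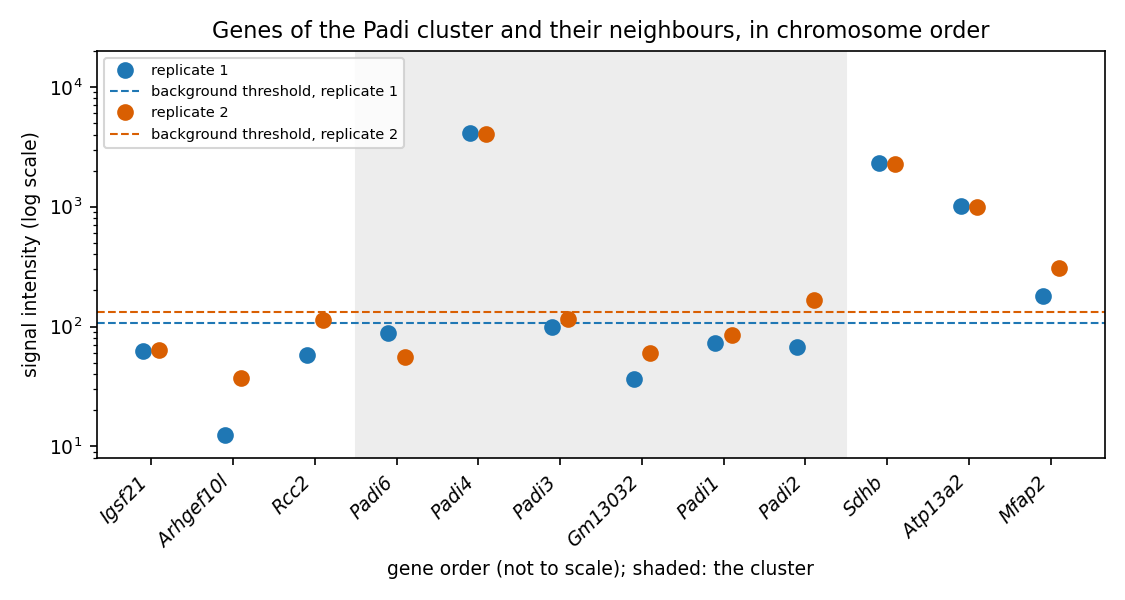
Signal intensity (log axis) of the brightest probe set of each measured gene in chromosome order, with replicate 1 in blue, replicate 2 in orange, the background value of each array as a dashed line and the Padi cluster shaded. Padi4 stands above the lines between Padi6 and Padi3, which lie below them, and Sdhb (2337 and 2289) and Atp13a2 (1016 and 987) are above the lines at the right.

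Genes of nuclear proteins that PAD4 is reported to citrullinate were mostly above background, at 9 of 12 measured genes against 40.4% of all genes. As for the lists below, the share is not matched to that of all genes. The list was chosen with earlier results of these data known, and a gene passes on any of its probe sets. The histone H3.3 genes H3f3a and H3f3b had signals of 674 and 2862 on replicate 1 and 657 and 2064 on replicate 2. H3.3 genes, and Rps2 below, have near-identical copies or pseudogenes, so these values are uncertain as to the gene. H1f2, a linker histone gene, had 7010 and 4787, and H1f10, another, had 3.64 and 51.8 and was below background on both. The 9 genes above background had a median log2 difference of -0.36, and none differed over 2-fold. Of the other PAD4 targets and partners 4 of 5 were above background, with the kinase gene Gsk3b at 1070 and 1020, the ribosomal protein gene Rps2 at 913 and 1434, and the deacetylase genes Hdac1 at 1033 and 1271 and Hdac2 at 337 and 497. Tal1, a blood transcription factor reported to work with PAD4, had 100 and 85.9 and was below background.

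Targets known for the paralogues were read in 3 short lists, which were not compared with each other. Of the PAD2 targets 3 of 5 were above background, where 40.4% of all genes were. Vim, an intermediate filament gene, had signals of 19583 and 27889, and Actb, cytoskeletal actin, had 27939 and 43219. Mbp, the gene of myelin basic protein, had 1375 and 818 on its brightest probe set, and 2 of its 8 probe sets were above background. Gfap, an astrocyte filament gene, was below it with 23.0 and 74.2. None of the 6 measured PAD1 and PAD3 targets was above background on either array, among them the skin genes Flg (32.4 and 11.9), Hrnr (0.765 and 2.85), Krt1 (106 and 73.2) and Krt10 (53.2 and 5.99). Of the PAD6 partners in the egg, Nlrp5 (2.84 and 13.1), Ooep (74.8 and 34.6) and Tle6 (20.8 and 27.0) were below background and Khdc3 was above it with 307 and 238.

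Genes for proteins that cover or drive extracellular traps were next set beside Padi4. All 5 measured oxidase genes, whose enzyme makes the superoxide that feeds trap release, were above background, against 40.4% of all genes. Cybb, the catalytic subunit, had signals of 14552 and 26798, its partner Cyba 11391 and 12895, and the cytosolic subunits Ncf1 15860 and 20666 and Ncf4 8927 and 10026. Of 10 measured granule and cytosolic trap proteins 6 were above background on both arrays, against the same 40.4%. Their median log2 difference was 0.66. The 4 that were not are the primary granule enzymes. Elane, neutrophil elastase, had signals of 57.7 and 39.2, Prtn3, proteinase 3, had 40.7 and 28.1, and Ctsg, cathepsin G, had 10.5 and 2.76, below background on both. Mpo, myeloperoxidase, had 98.2 and 187 and passed background only on the second array. Transcripts of these enzymes are known to be made early in granulocyte development, and the proteins are stored in granules.

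Signalling genes upstream of trap release were above background in 13 of 15 measured members, against 40.4% of all genes, with a median log2 difference of -0.35. The kinase genes Syk (2051 and 1496), Akt1 (855 and 921) and Prkcb (3114 and 4010) were above it, while Prkca (105 and 33.3) and Cdk4 (6.86 and 47.7) were below it on both arrays. The receptor genes Clec7a, for fungal glucan, and Tlr2, for bacterial lipoproteins, were over 2-fold lower on replicate 2, with differences of -1.49 and -1.21, where Padi4 stood at -0.02. Of the genes that supply the calcium which PAD enzymes need, 9 of 11 were above background, against the same 40.4%. The calcium sensor genes Stim1 (498 and 655) and Stim2 (1872 and 1671) and the channel genes Orai1 (1497 and 1108) and Orai2 (831 and 704) were among them. Orai3 was above background on replicate 1 alone (377 and 97.6), and Itpr3 was below it on both (24.4 and 83.1). Trpm2, an oxidant-gated channel gene, had 3163 and 1504 on its brightest probe set, a difference of -1.07. Its other probe set, also above background, had 418 and 355, a difference of -0.23, so the size of the Trpm2 difference depends on the probe set. Over the 9 lists of targets and trap genes 50 of 73 measured genes (68.5%) were above background, against 40.4% of all genes, and 10 listed genes were not analysed here. These shares are not matched. The lists were chosen with earlier results of these data known and hold genes of the neutrophil marker list. A gene also passes on any of its probe sets, and of genes with 1 probe set 26.7% passed.

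Genes of dividing cells had larger differences between the arrays than Padi4. Of 10 measured, 8 were above background on both arrays, against 40.4% of all genes, and all 8 had the higher signal on replicate 2. Their median log2 difference was 2.64, with a summed signal over the 10 genes of 2060 on replicate 1 and 10636 on replicate 2. The neutrophil markers had the higher signal on replicate 2 in 10 of 12 genes (median log2 difference 0.55). Monocyte markers, which matter because monocytes can also express Padi4, were above background in 4 of 7, with a summed signal of 9178 on replicate 1 and 4742 on replicate 2. Most of that sum came from Csf1r (5020 and 1928) and Fcgr4 (3419 and 2091). Whether the signals of these genes came from monocytes or from the sorted neutrophils was not tested. Ccr2 had 157 and 220 on its brightest probe set, with 1 of its 4 probe sets above background, and F13a1 had 264 and 231. Cx3cr1 (165 and 104), Irf8 (98.7 and 88.8) and Klf4 (54.8 and 79.1) were not above background on both arrays. The sum thus does not describe the whole list. Of the eosinophil markers 1 of 5 was above background (summed signal 427 and 447), namely Siglecf with 339 and 311, and the granule protein genes Epx (4.72 and 29.3) and Prg2 (35.3 and 60.0) were below it. Macrophage markers, a population in which Padi2 is known, were above background in 3 of 10, with a summed signal of 1630 on the first array and 999 on the second. Adgre1 (627 and 217) had the greatest part in that difference. The B cell markers had 1 of 7 above background and summed to 429 and 794. The gene above it, Igll1, had 173 and 167 and so had no part in that rise, and Ebf1 was also lower on replicate 2. The rise came from genes not above background on both arrays, namely Cd79a (17.6 and 111), Cd79b (12.8 and 76.4), Ms4a1 (72.6 and 158), Pax5 (88.8 and 174) and Vpreb1 (29.3 and 74.8). On replicate 1 taken alone 1 of the 7 B cell markers was above background, and on replicate 2 taken alone 3 were. These signals lay near or below background, and whether the sum reflects more B cell transcript on replicate 2 was not tested. Other markers above background that differed over 2-fold were Cxcr2 of the neutrophil list (-1.16) and Kit of the progenitor list (1.16). No marker was at exactly 0 on either array, but neither was the liver gene Alb (19.2 and 14.9), so a signal over 0 does not show a population. The part of any of these populations in the Padi4 or Padi2 signal was not tested.

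**Figure D4:**
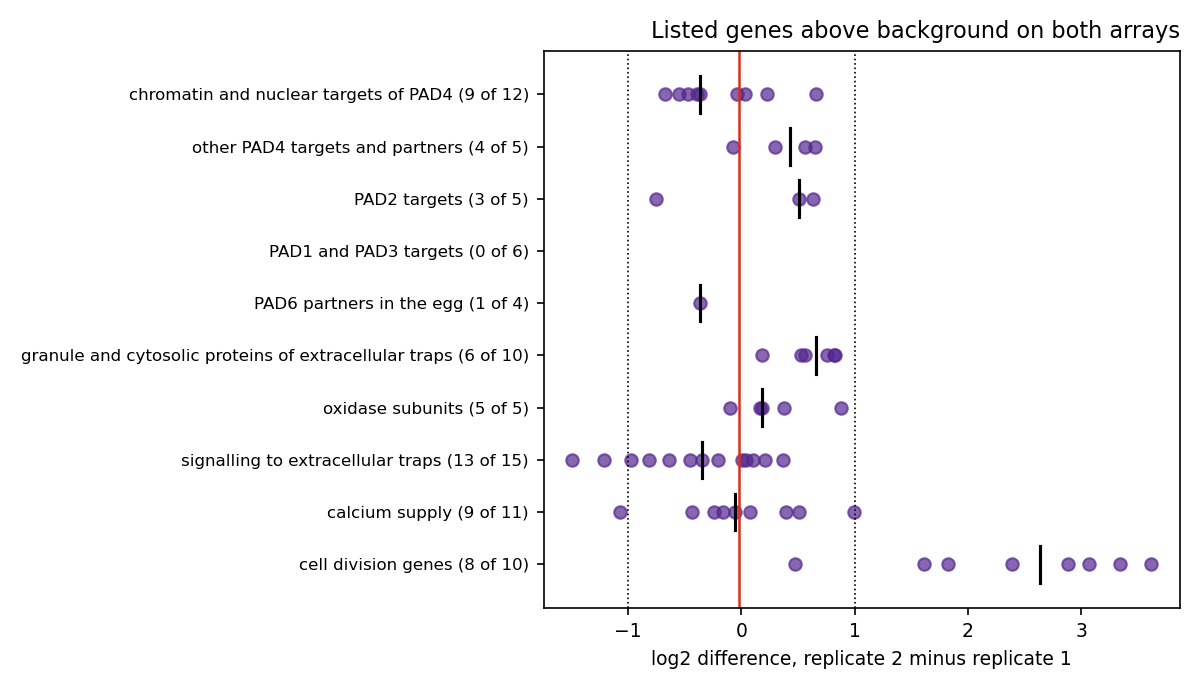
Log2 difference between the arrays (replicate 2 minus replicate 1) of each listed gene above background on both, by list, with the number above background of those measured; black bars are list medians, the red line is Padi4 (-0.02) and dotted lines mark 2-fold. All 8 cell division genes and all 6 granule and cytosolic trap genes lie to the right of Padi4, with medians of 2.64 and 0.66, and the other lists with over 1 gene have genes on both sides of it.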

How the data were processed

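Total RNA of 2 sorted neutrophil samples (200 ng each) was labelled with biotin by an Affymetrix 3' IVT kit and hybridised, per the labels' protocols. The deposited values are 1 linear signal intensity per probe set and array. The submitters' processing notes name MAS5 as the authors' tool, with no version or settings stated there. Checked on the deposited intensity values, the mean without the lowest and highest 2% was 250.0 on both arrays. Gene symbols came from the platform annotation in GEO, in which 34958 probe sets had 1 gene. Signals were floored at 1 and taken as log2. A gene's level is that of its brightest probe set by mean log2 signal. Probe sets differ in binding strength, so signals of different genes, their distance from background and summed signals do not rank transcript amounts. The call procedure was run on simulated data as a check of the code only. The simulated background was drawn from the sensory receptor values themselves, and the simulated expressed genes lay far above it. The outcome was thus fixed in advance and does not bear on signals near background. All Padi genes were named, with the first 4 measured genes of each target, trap, signalling and calcium list, their members whose call goes against over 75% of their list, and their members above background that differed over 2-fold. Genes of the marker lists were named after their values were seen. The members and lists were chosen with earlier results of these data known, and the promoter motifs after the sequences were seen. Python 3.11.15, numpy 2.4.6 and pandas 2.3.3 were used. Alternatives covered the background percentile and list, scaling, a value of 32 added before log2, probe set choice and each array alone.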

Additional observations from a re-analysis of the deposited data

How the results depend on the processing

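The count of Padi genes above background was 1 of 5, and likewise of Padi probe sets, with the 99th percentile or genes of other organs as background, with quantile normalization and without probe sets ending in _x_at or _s_at. It was 2 with the 90th percentile, which added Padi3 at 1.05 times background on its lower array, and it ranged from 1 to 2 over the arrays taken alone, where replicate 2 added Padi2. The Padi4 signal was above background in each of these 7 settings, at 18.6 to 43.4 times it. The log2 difference of Padi4 was -0.02, -0.15 with median scaling, 0.056 with quantile normalization and -0.74 with scaling to the hybridisation controls, and it was -0.02 with 32 added to the signal. The target and trap genes above background numbered 48 to 52 and the neighbours 2 to 4. Without a filter on background 27.1% of genes differed over 2-fold. No paired analysis was possible because the study has 1 group. A p-value for any difference would need more arrays, and signals near 108 and 131 give only bounds.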
